A study of Mus musculus with 6 samples.

Results

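The rows described here are 15 probe sets for immunoglobulin heavy and kappa chains, out of the 251 that the authors' deposited table lists as changed and the 35557 of the deposited value table. Of the 15, 11 were named as heavy chain rows in that table, by a symbol beginning with Igh or by the annotation text. The text counted if it named a heavy chain, the Igha protein or an IgM variable region. The other 4 rows stood in the same table under the provisional names EG629908, AB069917, EG434025 and Gm1499. A RefSeq table brings these up to date as the heavy chain variable segments Ighv1-43 and Ighv1-53 and the kappa variable segments Igkv9-120 and Igkv4-72. The set therefore held 13 heavy chain rows and 2 kappa rows, and no kappa row would have been found under the deposited names alone.

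The cells were a mouse pro-B line transformed by Abelson murine leukaemia virus, and all 6 cultures carried, from a retrovirus, a fusion of Gfi1b, a zinc finger repressor active in blood cell precursors, with an oestrogen receptor domain that tamoxifen activates. The 3 untreated cultures had no tamoxifen, and their label Wt refers to this state, since they carried the fusion too. The other 3 cultures were kept in tamoxifen for 12 h. Total RNA of each culture, described by the submitters as a biological replicate, was measured on a one-colour array. The labels do not say which promoter drove the retrovirus or whether the line was 1 clone, and no array of tamoxifen-treated cells without the fusion was analysed here. In bulk RNA, fewer cells carrying a transcript and less of it per cell cannot be told apart.

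A heavy chain gene is assembled during B cell development when the recombinase made of Rag1 and Rag2 joins a variable (V), a diversity (D) and a joining (J) segment, and the kappa light chain gene is assembled later from V and J segments alone. Pro-B cells are the stage at which the heavy chain locus rearranges. Unrearranged V segments can also be transcribed, as germline transcripts that code for no antibody. V segments of one family resemble each other in sequence, so a probe set for one of them can read its relatives. What follows is the signal of each probe set, which need not come from the 1 segment in its name.

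With tamoxifen all 15 rows read lower than untreated, from 1.53-fold to 2.03-fold, at a median log2 fold change of -0.74, beside -0.01 over all 35557 probe sets. This is a description of how the rows were chosen and not a finding, because the authors' deposited table holds only probe sets that had changed on these same arrays, with a fold of 1.503 or more and a p of 0.0451 or less. In each of the 15 rows the 3 tamoxifen values lay below the 3 untreated values, as they did in 7.78% of all probe sets. By limma, with p adjusted over the whole array by Benjamini-Hochberg, 11 of the 15 passed 0.05 as lower, beside 0.456% of all probe sets, and nothing is read from that count for the same reason. It also changed when 1 array was left out. The count was 12 without untreated replicate 2, 2 without tamoxifen replicate 2, and 1 without each of the other 4 arrays in turn. In the same settings the lower calls over all probe sets went from 162 to between 28 and 136. The median log2 fold change of the 15 rows lay between -0.86 and -0.69 when 1 array was left out. The table as a whole held 149 lower and 102 higher rows. The shared direction of the 15, which can read each other's transcripts, was not tested.

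**Figure D1:**
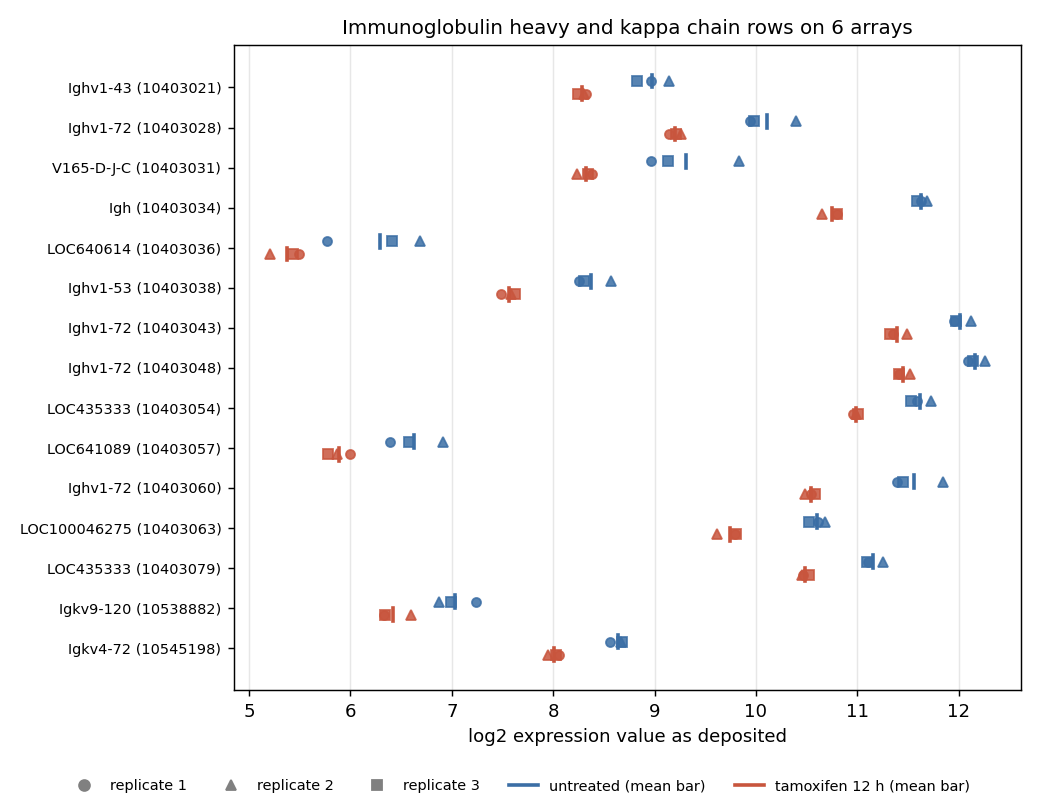
Log2 expression value as deposited (x axis) for each of the 15 heavy and kappa chain rows (y axis, by probe set number), with 1 point per array, the replicate shown by its shape and the group mean by a bar. In every row the 3 tamoxifen values (red) lie to the left of the 3 untreated values (blue), with the narrowest gap, 0.27, in LOC640614 and Igkv9-120.

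The row with the symbol Igh, which names the heavy chain complex, was probe set 10403034 (chromosome 12 in band F2). The symbol does not say which part of the heavy chain this probe set reads. Its log2 values were 11.62, 11.68 and 11.59 in untreated replicates 1 to 3 and 10.80, 10.66 and 10.80 with tamoxifen. The 3 values of each group lay close together, and a gap of 0.79 separated the groups. Its log2 fold change was -0.88 ± 0.066 (SE, n = 3 per group), or 1.84-fold lower. LOC100046275 (probe set 10403063), annotated as similar to the heavy chain constant region protein Igha of the IgA class, had a like spread. It read 10.61, 10.69 and 10.52 untreated and 9.79, 9.62 and 9.80 with tamoxifen, a log2 fold change of -0.87 ± 0.078 (SE). RefSeq gives no current gene for that name, so whether the row reads a constant or a variable region is not settled by the annotation.

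Ighv1-72, a variable segment of the large V1 family, was named by 4 rows that all cite the same transcript. Probe set 10403060 read 11.39, 11.84 and 11.46 untreated and 10.54, 10.49 and 10.59 with tamoxifen. At 2.03-fold lower (log2 fold change -1.02 ± 0.12, SE) it had the largest difference of the 15 rows, and untreated replicate 2 stood above the other untreated arrays. Probe set 10403028 read 9.94, 10.40 and 9.98 untreated and 9.15, 9.26 and 9.21 with tamoxifen (log2 fold change -0.90 ± 0.13). Again the untreated values were spread and the tamoxifen values tight, with an SD of 0.25 against 0.057. The other 2 rows differed less, with log2 fold changes of -0.71 ± 0.070 for probe set 10403048 and -0.63 ± 0.077 for 10403043. Within each array, probe set 10403060 minus 10403043 was -0.45 ± 0.15 untreated and -0.85 ± 0.14 with tamoxifen (SD, n = 3 each). The values of the 2 groups did not overlap, with a further drop of 0.40 ± 0.12 (SE) in the first. Untreated replicate 2 had the smallest difference, at -0.28. Without both arrays of replicate 2 the log2 fold changes were -0.86 for probe set 10403060 and -0.63 for 10403043. The pair was picked as the most and the least changed of the 4, so a difference between them was built in. Whether rows that share this transcript moved by equal amounts was not tested.

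LOC435333, annotated as similar to the heavy chain of a monoclonal antibody, was named by a further pair of rows that share a transcript. Probe set 10403079 read 11.11, 11.25 and 11.10 untreated and 10.46, 10.45 and 10.53 with tamoxifen (log2 fold change -0.67 ± 0.066, SE), and 10403054 had -0.63 ± 0.069. The 2 log2 fold changes lay within 1 SE of each other. With rows of 1 transcript counted once, by the probe set with the highest mean, 11 different transcripts remained, with a median log2 fold change of -0.74.

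The 2 heavy chain segments that were named through RefSeq lie on chromosome 12 in band F2, Ighv1-43 before Ighv1-53 and both before Ighv1-72 in order of start position, at places 123, 136 and 165 of 183 heavy chain V segments listed. Ighv1-43 (probe set 10403021) read 8.96, 9.15 and 8.83 untreated and 8.32, 8.30 and 8.24 with tamoxifen, a log2 fold change of -0.69 ± 0.090 (SE). Ighv1-53 (probe set 10403038, matched by a synonym) read 8.25, 8.57 and 8.31 untreated and 7.49, 7.58 and 7.62 with tamoxifen, a log2 fold change of -0.81 ± 0.096. Both had their highest untreated value in replicate 2.

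The row annotated as an IgM variable region, V165-D-J-C mu (probe set 10403031), was spread widely over the untreated arrays, with an SD of 0.46. It read 8.96, 9.83 and 9.13 untreated and 8.38, 8.24 and 8.34 with tamoxifen. Its log2 fold change was -0.99 ± 0.22 (SE) with all arrays and -0.73 without untreated replicate 2. The dimmest rows, LOC640614 (probe set 10403036) and LOC641089 (10403057), are annotated as similar to heavy chain V region precursors. LOC640614 read 5.77, 6.69 and 6.41 untreated and 5.50, 5.20 and 5.43 with tamoxifen, and 4 of these 6 values lay below the lower quartile of their array. For LOC641089, at 6.63 ± 0.26 untreated and 5.88 ± 0.11 with tamoxifen (SD, n = 3 each), 3 of 6 did. No measure of background was among the values used here, so the folds of these 2 rows, 1.88 and 1.67, are uncertain.

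Both kappa rows lie on chromosome 6 in band C1. Igkv4-72 (probe set 10545198) read 8.57, 8.67 and 8.68 untreated and 8.05, 7.95 and 8.02 with tamoxifen, a log2 fold change of -0.63 ± 0.062 (SE), the smallest error of the 15. Igkv9-120 (probe set 10538882) read 7.24, 6.87 and 6.99 untreated and 6.33, 6.60 and 6.35 with tamoxifen, a log2 fold change of -0.61 ± 0.12. Here replicate 2 was the lowest untreated and the highest tamoxifen array, and without both its arrays the log2 fold change was -0.78. At 1.53-fold, Igkv9-120 was the row nearest the authors' limit from inside. The 2 segments stand far apart in the locus, at places 20 and 80 of 162 kappa V segments by start position. Whether heavy and kappa rows differ in their fold was not tested, because the selection at 1.5-fold cuts both from below.

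The untreated arrays differed among themselves in these rows. Untreated replicate 2 was the highest untreated array in all 13 heavy chain rows and in neither kappa row, and it was the highest in 41.2% of all probe sets. Its excess over the mean of untreated replicates 1 and 3 had a median of 0.25 over the heavy chain rows, running from 0.076 in Igh to 0.79 in V165-D-J-C mu. Over all probe sets the median excess was 0.0044, with quartiles of -0.16 and 0.13. In Igkv9-120 the same difference was -0.24 and in Igkv4-72 0.045. The tamoxifen arrays were closer together, with a median SD over the heavy chain rows of 0.068 against 0.16 untreated, where all probe sets had 0.090 and 0.11. All 13 values come from 1 array, so they are 1 observation of that culture. Without both arrays of replicate 2, the 15 log2 fold changes lay between -0.86 and -0.57.

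**Figure D2:**
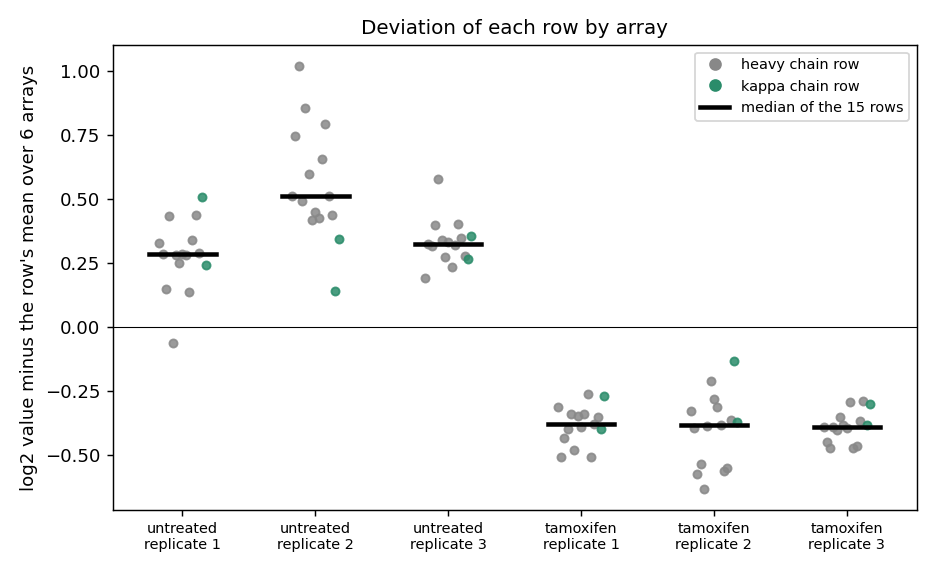
Log2 value minus the row's own mean over the 6 arrays (y axis) on each array (x axis), with 1 point per row, grey for heavy chain and green for kappa, and a black bar at the median of the 15 rows. The median is 0.51 in untreated replicate 2 against 0.29 and 0.32 in untreated replicates 1 and 3, and between -0.39 and -0.38 on the 3 tamoxifen arrays.

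Across the whole series array medians lay between 7.52 and 7.61, and the replicate 2 arrays stood apart. Component 1 of the 6 arrays, with 46% of the variance, set the untreated arrays of replicates 1 and 3 (scores of -30.6 and -26.5) against their tamoxifen arrays (26.6 and 23.4). Those of replicate 2 were crossed, scoring 9.74 without tamoxifen and -2.67 with it. Rows that crossed in the same way could hardly have met the authors' fold and p, so the selected rows do not show whether heavy chain transcripts at large followed that crossing.

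Most of the probe sets that surround these rows were left out by the authors' selection. Probe sets of neighbouring number tend to lie on the same chromosome: of 231 pairs of successive rows in the table whose chromosome is known, 211 did so, over 19 chromosomes. The 13 heavy chain rows fall within 1 run of 23 probe sets, from 10403021 to 10403079, of which 10 are not heavy chain rows by name. Of these 10, which have no name here, 9 were lower with tamoxifen, beside 52.8% of all probe sets. In 5 of them the groups did not overlap, as they did not, in the lower direction, in 7.78% of all probe sets. The median log2 fold change of the 10 was -0.32. These values include 1 probe set that is in the authors' deposited table, so its change was selected for. No annotation used here says whether they lie in the heavy chain locus. The window was drawn after the values were seen and has no test.

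The largest difference in the run belonged to probe set 10403046, which the authors' deposited table lists at a signed fold of -2.68 without a gene name. It read 8.55, 9.17 and 8.41 untreated and 7.43, 7.29 and 7.16 with tamoxifen, a log2 fold change of -1.41 ± 0.20 (SE), with untreated replicate 2 again the highest. A further 2 probe sets in the run were bright and level. Probe set 10403076 read 11.30, 11.25 and 11.22 untreated and 11.21, 11.31 and 11.23 with tamoxifen, a log2 fold change of -0.01 ± 0.059 (SE). Probe set 10403052 had 0.01 ± 0.14, at a mean of 8.84. The groups of both overlapped. Just outside the limit, probe set 10403073 in the run was 1.41-fold lower, and 10403015, 2 places below the run, was 1.49-fold lower.

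Around each kappa row the 10 probe sets on either side were read in the same way. No annotation used here says whether they lie in the kappa locus, and these windows have no test either. Of the 20 around Igkv9-120, 18 were lower, beside 52.8% of all probe sets, with a median log2 fold change of -0.19. In 10 of them all tamoxifen values lay below all untreated values, beside 7.78% of all probe sets. The brightest of these 10, probe set 10538890, read 11.35, 11.42 and 11.49 untreated and 10.91, 10.85 and 11.03 with tamoxifen (log2 fold change -0.49 ± 0.072, SE), 1.41-fold lower and so under the authors' limit. Of the 20 around Igkv4-72, 14 were lower and 6 had groups apart in that direction, with a median of -0.18. The tightest was probe set 10545184, at 8.74 ± 0.022 untreated and 8.23 ± 0.022 with tamoxifen (SD, n = 3 each; log2 fold change -0.52). The 10 probe sets just above the heavy chain run had a median log2 fold change of -0.04, and none had groups apart in the lower direction. The 10 just below it had a median of -0.18, and 2 had groups apart as lower, both within 2 places of the run.

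**Figure D3:**
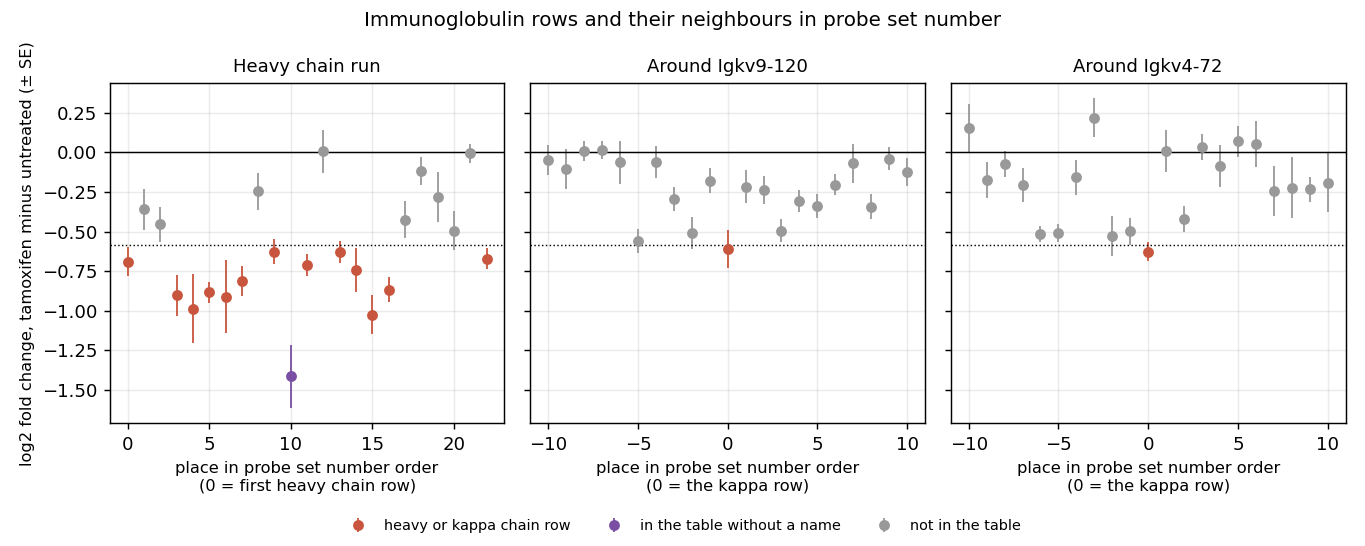
Log2 fold change, tamoxifen minus untreated, with its limma SE (y axis), by place in probe set number order (x axis), for the run of 23 probe sets holding the 13 heavy chain rows and for the 10 probe sets on either side of each kappa row. The dotted line marks 1.5-fold lower; the named rows (red) lie below it because they were selected there, most unnamed neighbours (grey) lie between it and 0, and probe set 10403046 (purple) is lowest at -1.41.

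Few other genes of antigen receptor assembly have a row in the authors' deposited table, which limits this to genes selected for change on these arrays. Of 14 V(D)J recombination genes 2 were present, and on the log2 scale Rag1 fell by 2.28 and Rag2 fell by 1.83. Of 13 other receptor chains and partners, among them the surrogate light chain genes and lambda constant segments, the 1 present was Cd79b, a signalling partner of the receptor. It rose by 0.65 ± 0.073 (SE) on the log2 scale, opposite in sign to the heavy and kappa rows. Of 25 regulators of immunoglobulin loci 4 were present. Spib, an Ets factor of B cells, rose by 0.92 and the Ikaros family factor Ikzf3 by 0.63. Rel, an NF-kB subunit of lymphocytes, fell by 0.70. Id2, an inhibitor of E proteins, did not pass at a log2 fold change of 0.63 (limma adjusted p = 0.14). All lists together gave 3 genes higher and 3 lower past the threshold, beside 0.433% and 0.456% of all probe sets.

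The pro-B identity could be checked against 3 of 9 B lineage precursor markers, Cd79b, Rag1 and Rag2, and the other 6 have no named row here. Summed on the linear scale, these 3 read 6176 to 6689 untreated and 5527 to 6260 with tamoxifen. That sum joins opposite changes, Cd79b 1.57-fold higher with Rag1 4.84-fold and Rag2 3.56-fold lower, and all 3 have a named row because they changed, so it is a weak check of identity. The markers of other cells that have a named row were selected for change in the same way, so nothing is read from their moving. Of all probe sets, 0.433% passed the limma threshold as higher. The 2 of 6 plasma cell markers present, Xbp1 and Prdm1, summed to 3689 to 4267 untreated and 5902 to 6206 with tamoxifen, and both rose. The 2 of 7 myeloid markers present, Lyz1 and Lyz2, summed to 414 to 455 untreated and 847 to 1012 with tamoxifen, and both rose. The 2 of 7 T and NK cell markers present, Tcf7 and Zap70, summed to 291 to 308 untreated and 495 to 526 with tamoxifen. Tcf7 rose, and Zap70 did not pass at a log2 fold change of 0.63 (limma adjusted p = 0.078). Without a measure of background these sums do not show whether a marker was detected, and markers without a named row were not analysed here. The part of such cells in the immunoglobulin values was not tested.

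The named genes outside the set whose values ran most like the mean of the 15 rows over the 6 arrays were Lpxn, Casp1 and Dusp4, by Pearson's r among 212 genes. The 6 values share the treatment difference for which both sides were selected, so r was 0.998 or above for all 3 and is given as a description. Lpxn, the adhesion adaptor leupaxin, read 10.45, 10.66 and 10.49 untreated and 9.90, 9.88 and 9.85 with tamoxifen. Casp1, the protease that matures interleukin 1 beta, read 8.70, 9.26 and 8.79 untreated and 7.57, 7.46 and 7.57 with tamoxifen. Dusp4, a phosphatase of MAP kinases, read 9.32, 9.60 and 9.38 untreated and 8.71, 8.72 and 8.77 with tamoxifen. All 3 had untreated replicate 2 highest, as the heavy chain rows and 41.2% of all probe sets did. Their choice by r over these same arrays favours this, so nothing is read from it.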

How the data were processed

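For 6 arrays the authors deposited log2 expression per probe set, and these values were used unaltered. The submitters' processing notes name Partek, with neither version nor role. Background correction, normalization, array design and build are not stated in the labels or headers. The authors' deposited table lists a p-value for each of 251 probe sets, with a linear fold used here as a score, negative for a fall.

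Names were updated through RefSeq (GRCm38.p6), 200 rows by accession, 19 by gene number, 8 by symbol, 5 by synonym and 19 not at all. Groups and replicate numbers came from array titles. Differences were fitted with limma 3.58.1 in R 4.3.3 (lmFit, eBayes, no covariate) on all 35557 probe sets, with Benjamini-Hochberg adjustment at 0.05. The fit was tested on simulated data for this comparison (10 runs of 35557 probe sets, 200 of them changed). It recovered 52.4% of 1.5-fold and 78.6% of 2-fold changes. The simulated noise was independent between probe sets, so array differences shared by many probe sets, as in component 1, were absent from it. The 6 arrays limit the precision.

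The members and lists were chosen with earlier results of these data known. Named genes are the 15 rows, the list genes in the table (by their brightest row) and the 3 genes most like the rows' mean. Alternatives were the replicate block, arrays left out, quantile normalization, median subtraction, brighter or higher-numbered probe sets, an intensity trend, array weights and each transcript once. Restricting the rows to those named as deposited was added after seeing the data. Figures were drawn with matplotlib 3.10.9.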

Additional observations from a re-analysis of the deposited data

How the results depend on the processing

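No alternative changed the sign of any of the 15 rows, which the selection of the rows fixes in large part. The median log2 fold change, -0.74, lay between -0.86 and -0.69 with 1 array left out. It was -0.87 over the 11 rows named as deposited (added after seeing the data). Elsewhere it moved by less than 0.086, the pooled SD within groups of the rows' median deviation on each array. The 11 rows past the limma threshold ranged from 1 to 12 with 1 array left out and were 7 of 11 with each transcript counted once. With the replicate block, 0 of the 15 passed by limma, while all 15 had an unadjusted p under 0.05, as had 1031 lower probe sets in all. Same-numbered arrays deviated from their group means with correlations of -0.23, -0.45 and -0.096, so no shift shared by arrays of 1 number was seen. The most negative value was that of replicate 2, whose arrays were crossed on component 1. Whether the numbers link the arrays in another way was not tested.

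Of all probe sets, 154 were higher and 162 lower. Leaving out 1 array gave 9 to 278 higher and 28 to 136 lower. The replicate block gave 6 and 16. Counts were 247 and 85 when both arrays numbered 2 were dropped, 515 and 342 among the brighter probe sets, 332 and 308 without the low-numbered block, 410 and 311 with an intensity trend and 814 and 376 with array weights. Lower calls were 309 after quantile normalization and 104 after median subtraction. Fewer arrays or probe sets enter some of these, and the cause of the other shifts was not tested.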

Other observations

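Rows of the authors' deposited table whose text names an immunoglobulin domain, but no heavy or kappa chain, were Sema4a and Sema7a, semaphorins of the cell surface. Sema4a read 10.19, 10.33 and 10.08 untreated and 11.03, 10.98 and 10.96 with tamoxifen, a log2 fold change of 0.79 ± 0.077 (SE). Sema7a averaged 10.10 ± 0.25 untreated and 10.83 ± 0.10 with tamoxifen (SD, n = 3 each). Its log2 fold change was 0.73 ± 0.13 (SE). Both were higher with tamoxifen, where the 15 chain rows were lower, and all of these rows were selected for change. Untreated replicate 2 was the highest untreated array in both, as it was in 41.2% of all probe sets.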
